A study of Mus musculus with 9 samples.

Results

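The ABC drug efflux pumps examined here were Abcb1a, Abcb1b, Abcb4, Abcc1, Abcc2, Abcc4, Abcc5 and Abcg2, that is 8 of the 19505 genes with a symbol on the array. They were found by gene symbol, and each had 1 probe set. Expression was measured in C1498, a mouse leukaemia cell line, in 3 groups of 3 arrays. The cells of shZeb1_D and shZeb1_C carried a short hairpin RNA against Zeb1 of sequence D or C, and those of Scr a negative control construct. Every group had been infected with lentivirus that also encoded GFP, and GFP-positive cells were collected 2 weeks after infection. Nothing in the labels tells whether replicate arrays stem from separate infections of this 1 line. The p-values therefore measure only the spread between these samples, and that spread may be technical. The title of the series names the question, how ZEB1 in acute myeloid leukaemia acts on T cells and Th17 cells.

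The family was selected on measured values: the signals of Abcb1a and Abcb1b against Scr, which an earlier analysis of these arrays had called with both hairpins. Their differences from Scr, and for caution those of the other 6 pumps, are therefore described with no p-value. The comparison of shZeb1_D with shZeb1_C played no part in the choice and was tested. Both comparisons with Scr use the same 3 Scr arrays, so they are not independent of each other.

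ABC transporters are membrane proteins that bind and hydrolyse ATP to move substrates across a membrane. P-glycoprotein, made in mice by Abcb1a and Abcb1b and in humans by ABCB1 alone, pumps a wide range of hydrophobic compounds out of the cell, among them anthracyclines and vinca alkaloids used against blood cancers. The ABCC members include multidrug resistance proteins, which export organic anions and conjugates, and Abcg2 is the breast cancer resistance protein, also known from blood stem cells. In acute myeloid leukaemia, efflux by ABCB1 has long been studied as a route of drug resistance.

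Array medians lay between 6.97 and 7.16 (log2), and arrays of a group correlated across probe sets with Pearson's r of 0.9777 to 0.9949. The arrays did not vary independently. The first component of within-group residuals held 57.9% of the residual variance and was negative for 4 arrays (shZeb1_D replicates 14 and 15, shZeb1_C replicate 12 and Scr replicate 8) and positive for the other 5. Zeb1 itself stood at 9.41 ± 0.15 in shZeb1_D, 10.25 ± 0.21 in shZeb1_C and 10.46 ± 0.15 in Scr (log2 mean ± SD, n = 3 each), a difference from Scr of -1.05 ± 0.16 (SE) in shZeb1_D and -0.20 ± 0.16 in shZeb1_C, with limma adjusted p of 0.0263 and 0.895. In the libraries labelled shZeb1_C a lower level of the target was thus not shown. Leaving out Scr replicate 7, 8 or 9 ended the call of Zeb1 in shZeb1_D (adjusted p of 0.0941, 0.0502 and 0.157), as did leaving out shZeb1_D replicate 14 (0.0835) or 15 (0.123).

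Markers of leukocytes were bright: Ptprc, the pan-leukocyte antigen CD45, lay between 14.40 and 15.31 on all arrays, although Spn lay between 5.59 and 6.07. Of 8 measured myeloid markers 1, Mpo, had a mean brighter than the median probe set, and Spi1, the myeloid transcription factor PU.1, lay between 5.00 and 5.72. Cd3e and Cd3g, chains of the T cell receptor complex, lay between 13.41 and 15.32 and between 15.38 and 15.71. The mean log2 level of 8 T and NK cell markers was 8.32 to 8.57 in shZeb1_D, 9.40 to 9.85 in shZeb1_C and 8.07 to 8.57 in Scr. It was higher on every shZeb1_C array than on any other. The marker with the widest gap was Nkg7, a granule gene of cytotoxic cells, at 4.63, 6.12 and 4.81 in shZeb1_D, 9.11, 9.79 and 12.65 in shZeb1_C, and 4.49, 4.32 and 4.94 in Scr. The ranges of Cd3g, Cd4, Cd8a and Ncr1 in shZeb1_C overlapped those of both other groups. The part of these markers in the results on the pumps was not tested.

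Abcb1a, a P-glycoprotein gene, was the pump with the largest difference from Scr with either hairpin. Its RMA signal (log2) was 13.51, 12.73 and 13.08 on shZeb1_D replicates 13, 14 and 15, and 13.49, 13.69 and 13.37 on shZeb1_C replicates 10, 11 and 12. On Scr replicates 7, 8 and 9 it was 10.75, 10.14 and 10.86. Each hairpin array lay above each Scr array by more than the spread within any group, while the ranges of the hairpins overlapped. The difference from Scr was 2.52 ± 0.25 (SE) in shZeb1_D, a signal 5.75 times that of Scr, and 2.93 ± 0.25 in shZeb1_C, a signal 7.64 times that of Scr. In order of level the groups ran shZeb1_C, shZeb1_D and Scr, and the step between the hairpins did not pass the test.

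Abcb1b, the other P-glycoprotein gene, had a log2 signal of 15.14, 14.38 and 14.44 on shZeb1_D replicates 13, 14 and 15. It was 14.55, 14.62 and 14.38 on shZeb1_C replicates 10, 11 and 12, and 12.99, 12.32 and 12.95 on Scr replicates 7, 8 and 9. Again the hairpin arrays lay above all Scr arrays, and shZeb1_C lay inside the range of shZeb1_D. The difference from Scr was 1.90 ± 0.25 (SE) in shZeb1_D and 1.76 ± 0.25 in shZeb1_C, signals 3.73 and 3.39 times that of Scr.

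**Figure D1:**
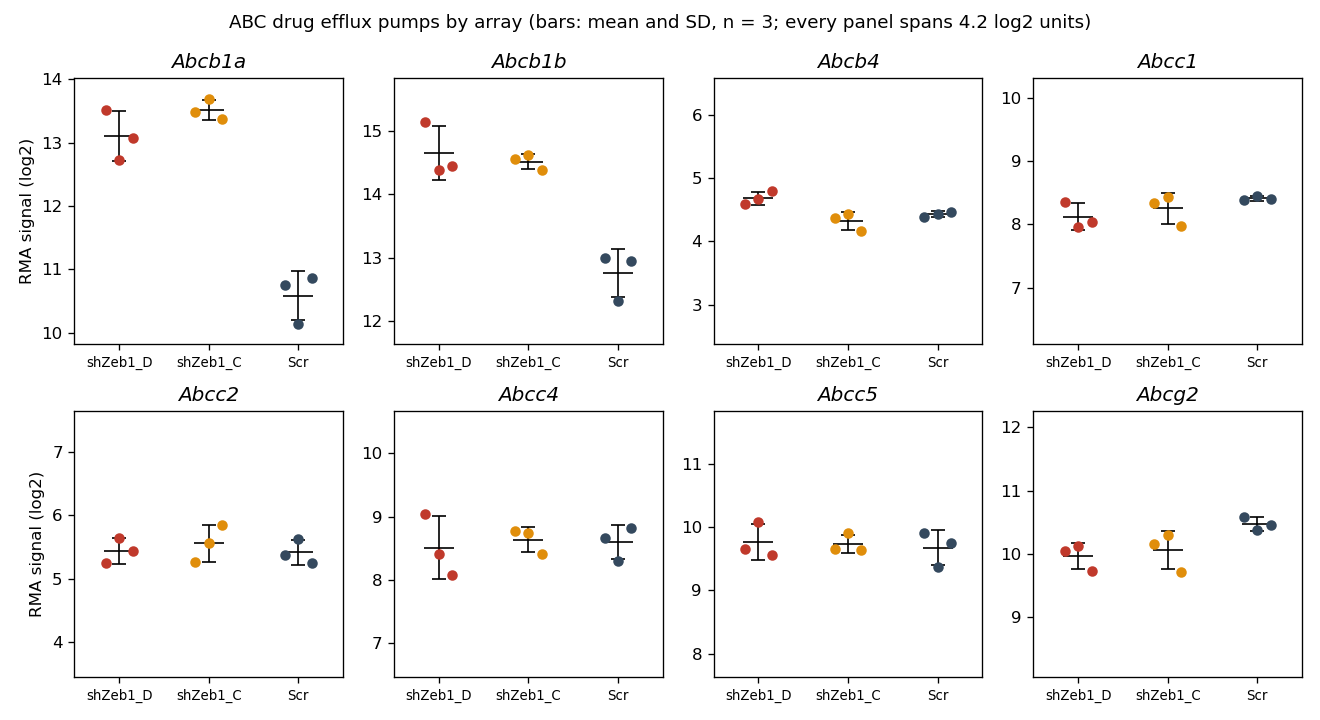
RMA signal (log2) of the 8 pumps on each array, with shZeb1_D, shZeb1_C and Scr from left to right and bars for the mean and SD (n = 3). Abcb1a and Abcb1b are higher on all 6 hairpin arrays than on the Scr arrays, Abcg2 is lower on all 6, and the other pumps show smaller differences.

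Abcb4, whose protein moves phosphatidylcholine into bile in liver, is the third gene of the run that Abcb1a and Abcb1b form on chromosome 5. Its log2 signal was 4.59, 4.67 and 4.79 in shZeb1_D, 4.37, 4.43 and 4.16 in shZeb1_C, and 4.38, 4.44 and 4.47 in Scr. All 9 values were near the bottom of the range of the arrays, with a mean at percentile 3.31 of all probe sets, so the gene was not clearly measured above background in any group. The 3 genes are close paralogs, probe sequences were not used here, and how far their probe sets share target RNA was not tested. The Abcb4 probe set stayed dim on arrays where those of Abcb1a and Abcb1b were bright. This does not tell whether the probe sets of Abcb1a and Abcb1b read each other's RNA.

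Within each group, Abcb1a and Abcb1b went up and down together from array to array. Pearson's r of their deviations from the group means was 0.95 over the 9 arrays, a description that carries no p. These deviations also followed the shared residual component, with r of 0.86 for Abcb1a and 0.88 for Abcb1b. This was not particular to the pair: r was 0.87 for Abcc4, 0.82 for Abcc1, 0.67 for Abcg2 and -0.88 for Abcc2, and 0.23 for both Abcb4 and Abcc5. Accordingly, Abcb1a and Abcb1b were each lowest in Scr on replicate 8 and in shZeb1_D on replicate 14, and in shZeb1_C on replicate 12, which are among the 4 arrays set apart above. Without those 4 arrays shZeb1_D kept 1 array and shZeb1_C and Scr 2 each, the lone array being assumed to vary like the others. Since the pair was chosen for its differences from Scr, nothing is read from its values in that setting.

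**Figure D2:**
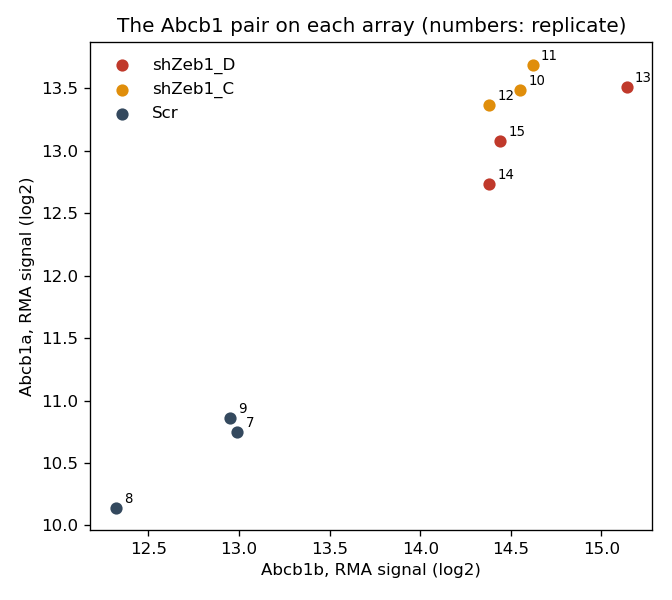
Abcb1a (y axis) against Abcb1b (x axis), RMA signal in log2, 1 point per array with its replicate number, coloured by group. The Scr arrays form the low corner, the shZeb1_C arrays sit above the shZeb1_D arrays of like Abcb1b signal, and replicate 8 is the lowest of all.

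The difference between these probe sets within an array removes what the array shares, and it separated the groups. Abcb1a minus Abcb1b (log2) was -1.63, -1.65 and -1.36 in shZeb1_D, -1.06, -0.93 and -1.01 in shZeb1_C, and -2.24, -2.18 and -2.09 in Scr. No group overlapped another, and both hairpins lay above Scr, so Abcb1a differed from Scr by more than Abcb1b did in each. The SD within a group was 0.16 in shZeb1_D, 0.07 in shZeb1_C and 0.08 in Scr (n = 3 each). Between shZeb1_D and shZeb1_C it differed by -0.55, with an exact two-sided permutation p of 0.10, the smallest that 3 arrays against 3 allow. This difference was computed after the values of both genes had been seen. Both genes were chosen for their differences from Scr, so its distance from Scr is only a description.

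The promoter windows of this pair are shown because these genes had the largest differences from Scr among the pumps. They are RefSeq sequences of build GRCm38.p6, plus strand, from 250 bases before to 50 after the annotated start, Abcb1a at chr5:8566841-8567140 and Abcb1b at chr5:8797897-8798196. Capitals mark CCAAT boxes (CCAAT or ATTGG) and GC boxes (GGGCGG or CCGCCC), motifs known from the human ABCB1 promoter that were added after the sequences had been seen. An E-box that Zeb1 binds (CACCTG or CAGGTG, both strands) was also searched. No other sequence that Zeb1 may bind was searched.
Abcb1a: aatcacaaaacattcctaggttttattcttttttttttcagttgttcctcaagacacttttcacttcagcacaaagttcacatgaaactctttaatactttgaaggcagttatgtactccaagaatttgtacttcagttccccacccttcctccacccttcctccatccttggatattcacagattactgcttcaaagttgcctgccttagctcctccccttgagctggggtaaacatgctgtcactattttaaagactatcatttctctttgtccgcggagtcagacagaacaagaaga
Abcb1b: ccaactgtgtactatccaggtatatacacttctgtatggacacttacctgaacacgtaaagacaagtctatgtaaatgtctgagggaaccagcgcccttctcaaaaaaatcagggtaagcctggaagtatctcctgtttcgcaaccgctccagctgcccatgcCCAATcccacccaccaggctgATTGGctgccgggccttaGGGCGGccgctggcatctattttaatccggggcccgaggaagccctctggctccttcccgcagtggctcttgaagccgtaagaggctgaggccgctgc
The Abcb1b window held 2 CCAAT boxes, which begin 87 and 66 bases before the start, and 1 GC box beginning 48 bases before it. The Abcb1a window held neither motif. It surrounds the 1 start given for this gene, and sequence around any other start of Abcb1a was not searched. Over all 32851 promoter windows of 300 bases, 37.4% held a CCAAT box and 35.7% a GC box. Neither window of the pair held the Zeb1 E-box, which 20.2% of all windows hold, and this says only that those letters are not in these windows.

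Among the pumps the E-box stood in 1 of 10 windows, which cover 7 of the 8 genes. It was in a window of Abcc4, beginning 156 bases before the start, and is shown in capitals within 30 bases on the minus strand at chr14:118706358-118706387 (GRCm38.p6).
Abcc4: gccgcccccggtCACCTGcgcgcggttggt
Abcc4, the pump with this match, did not separate the groups. Its log2 signal was 9.05, 8.41 and 8.08 in shZeb1_D, 8.77, 8.74 and 8.41 in shZeb1_C, and 8.67, 8.30 and 8.83 in Scr, with all ranges overlapping. It differed from Scr by -0.09 ± 0.26 (SE) in shZeb1_D and 0.04 ± 0.26 in shZeb1_C.

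Abcg2, the gene of the breast cancer resistance protein, was lower than Scr with both hairpins. Its log2 signal was 10.05, 10.12 and 9.73 in shZeb1_D and 10.16, 10.29 and 9.72 in shZeb1_C, against 10.58, 10.37 and 10.46 in Scr. No hairpin array reached the lowest Scr array, and the hairpins overlapped each other. The difference was -0.50 ± 0.19 (SE) in shZeb1_D and -0.41 ± 0.19 in shZeb1_C, signals 0.705 and 0.751 times that of Scr, and Abcg2 was not called in either comparison.

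The other ABCC pumps stood close to their Scr levels. Abcc1, the multidrug resistance protein that exports glutathione conjugates, had a log2 signal of 8.36, 7.96 and 8.03 in shZeb1_D, 8.34, 8.43 and 7.98 in shZeb1_C, and 8.38, 8.45 and 8.40 in Scr. The shZeb1_D arrays lay just below those of Scr, by -0.29 ± 0.17 (SE), while the shZeb1_C range overlapped Scr. Without the 4 arrays set apart above, the difference of Abcc1 in shZeb1_D was -0.03. Abcc5, an exporter of cyclic nucleotides, ran from 9.55 to 10.08 in shZeb1_D, from 9.64 to 9.90 in shZeb1_C and from 9.37 to 9.90 in Scr. Abcc2, a pump known from the bile canaliculus of liver, was dim, at 5.24 to 5.64 in shZeb1_D, 5.26 to 5.84 in shZeb1_C and 5.24 to 5.63 in Scr. The groups of Abcc2 and of Abcc5 overlapped in every comparison, and their differences from Scr lay between 0.02 and 0.14.

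Against Scr, limma called 2 of 8 pumps higher and 0 lower in shZeb1_D, beside 0.843% of all probe sets called (0.399% higher and 0.445% lower). In shZeb1_C it also called 2 higher and 0 lower, beside 0.945% called (0.659% higher and 0.286% lower). The called pumps were Abcb1a and Abcb1b, which brought the family into view, so nothing is read from these shares. The group ranges did not overlap for 5 of the pumps in shZeb1_D (Abcb1a, Abcb1b and Abcb4 higher, Abcc1 and Abcg2 lower), beside 17.0% of all probe sets (10.3% higher and 6.65% lower), and for 3 in shZeb1_C (Abcb1a and Abcb1b higher, Abcg2 lower), beside 14.2% (7.50% higher and 6.74% lower). Abcb1a and Abcb1b, on which the family was chosen, are among the pumps in both of these counts, so nothing is read from them either. The median difference of the 8 pumps was 0.05 in shZeb1_D and 0.05 in shZeb1_C, and that of all probe sets 0.04 and 0.00. The call of Abcb1b in shZeb1_D was lost without Scr replicate 9 or shZeb1_D replicate 15, and that in shZeb1_C without Scr replicate 9 or shZeb1_C replicates 10 or 11, which left 1 pump, Abcb1a, called.

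Between shZeb1_D and shZeb1_C, limma called 0 of 8 pumps, beside 0.848% of all probe sets (0.307% higher and 0.542% lower), and 1 pump, Abcb4, had an unadjusted p under 0.05. The share of all probe sets under this unadjusted threshold was not counted, so nothing is read from such counts, here or below. Abcb1a differed by -0.41 with a 95% interval of -0.97 to 0.15 (limma adjusted p = 0.57), and Abcb1b by 0.14 with an interval of -0.43 to 0.70 (limma adjusted p = 0.87). A p that misses the threshold does not show that the hairpins act alike on this pair. Abcb4 differed by 0.36 with an interval of 0.06 to 0.67 (limma adjusted p = 0.338), higher on 3 of 3 shZeb1_D arrays at a level near background. It was the 1 pump whose hairpin groups did not overlap, beside 15.2% of all probe sets (8.99% higher and 6.26% lower). Abcc1, Abcc2, Abcc4, Abcc5 and Abcg2 differed by -0.13 to 0.03, with limma adjusted p between 0.806 and 0.968. The widest of their intervals, that of Abcc4, ran from -0.71 to 0.45. The median difference of the 8 pumps was -0.10, and that of all probe sets 0.04.

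**Figure D3:**
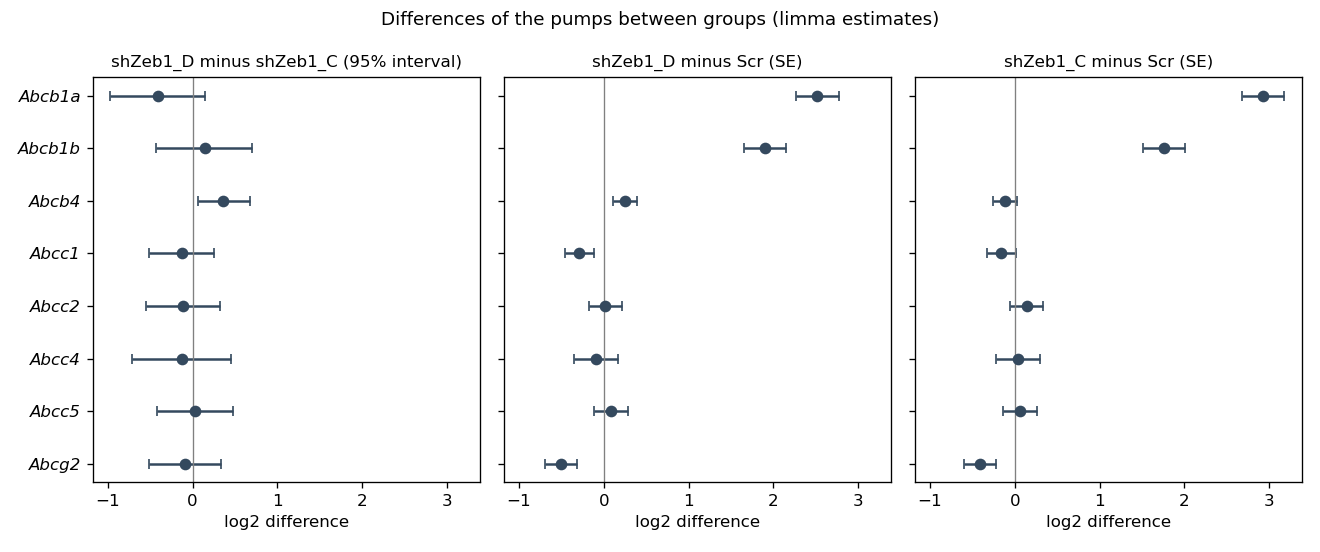
Log2 differences of the 8 pumps (limma estimates) for shZeb1_D minus shZeb1_C with 95% intervals, and for shZeb1_D minus Scr and shZeb1_C minus Scr with SE. Between the hairpins every interval except that of Abcb4 includes 0, and against Scr Abcb1a (2.52 and 2.93) and Abcb1b (1.90 and 1.76) stand apart from the other pumps.

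The pair was chosen for its differences from Scr, so its rank among ABC genes on the same differences is a description. Of 51 measured ABC genes, Abcb1a had the highest difference from Scr with each hairpin, and Abcb1b ranked 2 in shZeb1_D and 3 in shZeb1_C. The next highest in shZeb1_D was 0.98, of Abca13, a member of the lipid transporter subfamily. Of the 43 other ABC genes measured (45 listed), 16 had a mean brighter than the median probe set. In shZeb1_D 0 rose and 0 fell by limma (5 had an unadjusted p under 0.05), and in shZeb1_C 1 rose and 0 fell. Their median difference from Scr was 0.01 in shZeb1_D and -0.01 in shZeb1_C, and between the hairpins limma called 0, with 3 at an unadjusted p under 0.05.

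The 1 call was Abcg3, a rodent relative of Abcg2. Its log2 signal was 7.34, 7.76 and 7.41 in shZeb1_D, 8.34, 9.03 and 9.38 in shZeb1_C, and 7.51, 6.75 and 6.77 in Scr, so the shZeb1_C arrays lay above all others. It rose in shZeb1_C by 1.91 ± 0.30 (SE; limma adjusted p = 0.0221), and its difference from Scr in shZeb1_D was 0.49 ± 0.30 (limma adjusted p = 0.506). Set directly against each other, the hairpins differed by -1.41 ± 0.30, which was not called (limma adjusted p = 0.0765). The rise of Abcg3 was no longer called when Scr replicate 8 (adjusted p = 0.0865) or 9 (0.114) was left out. The same held for shZeb1_C replicate 11 (0.081), shZeb1_C replicate 12 (0.0527) and shZeb1_D replicate 15 (0.051).

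**Figure D4:**
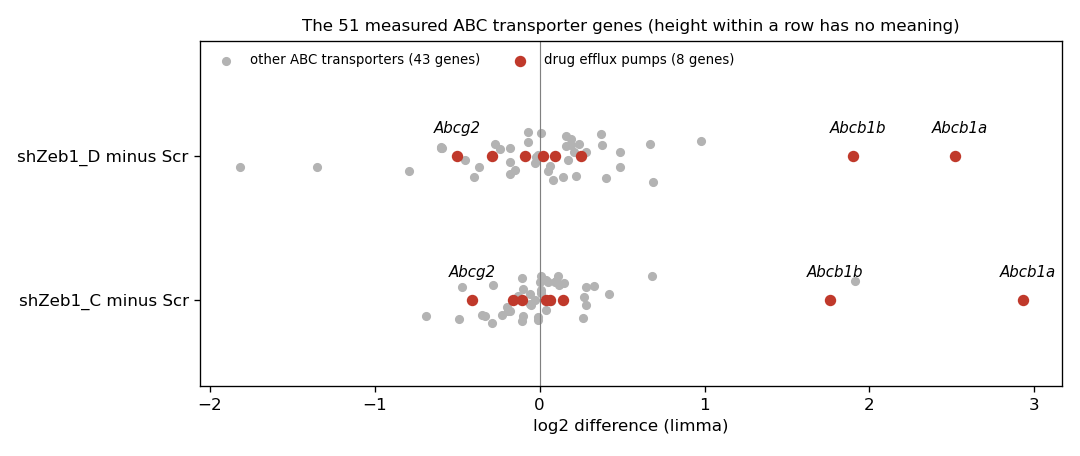
Log2 difference from Scr (x axis, limma) of the 51 measured ABC transporter genes, with shZeb1_D above shZeb1_C, the 8 efflux pumps in red and the 43 others in grey. Abcb1a (2.52 and 2.93) is at the right end of both rows, Abcg2 (-0.50 and -0.41) lies left of 0, and most of the others lie near 0.

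The genes beside the Abcb1 run on chromosome 5 were examined in the order of the RefSeq table, 10 measured genes on each side. In that order no other measured gene lies between Abcb1a, Abcb1b and Abcb4. In shZeb1_D 5 of 20 neighbours rose and 0 fell against Scr, their median difference was 0.72, and 18 of 20 were above 0. In shZeb1_C limma called 0 of 20, the median was 0.18, and 14 of 20 were above 0. These shares stand beside the 0.399% and 0.659% of all probe sets called higher.

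The nearest measured neighbours on both sides were higher than Scr with each hairpin. Rundc3b, whose annotated span overlaps that of Abcb1a, had a log2 signal of 12.36, 11.13 and 11.62 in shZeb1_D, 11.21, 11.49 and 10.92 in shZeb1_C, and 9.57, 9.16 and 10.00 in Scr. It rose in shZeb1_D by 2.13 ± 0.33 (SE; limma adjusted p = 0.025). In shZeb1_C the groups did not overlap either, and the difference of 1.63 ± 0.33 was not called (limma adjusted p = 0.0615). Crot, an acyltransferase of peroxisomes on the side of Abcb4, had a log2 signal of 12.62, 12.27 and 11.88 in shZeb1_D, 11.45, 11.30 and 11.69 in shZeb1_C, and 10.70, 10.40 and 10.69 in Scr. It rose in shZeb1_D by 1.66 ± 0.21 (limma adjusted p = 0.0124), and differed by 0.88 ± 0.21 in shZeb1_C (limma adjusted p = 0.116). The 3 groups of Crot did not overlap.

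Slc25a40, a mitochondrial carrier 2 places before the run, rose in shZeb1_D by 1.42 ± 0.22 (SE; limma adjusted p = 0.0237), as did Dmtf1, a transcription factor 3 places after it, by 1.27 ± 0.20 (adjusted p = 0.0301) and Sri, the calcium-binding protein sorcin, 5 places before it, by 0.94 ± 0.17 (adjusted p = 0.0404). In shZeb1_C these 3 genes differed from Scr by 0.47 ± 0.22, -0.03 ± 0.20 and 0.30 ± 0.17. Between the hairpins, Dbf4, an activator of DNA replication, was higher in shZeb1_D by 1.13 ± 0.20 (limma adjusted p = 0.0403). Tmem243 was higher there by 1.36 ± 0.23 (adjusted p = 0.0326) and Dmtf1 by 1.30 ± 0.20 (adjusted p = 0.0232). So 3 of 20 neighbours were called between the hairpins, beside 0.307% of all probe sets called higher. Of the 3 genes of the run 0 were called. With Abcb4 near background, these genes are too few to be contrasted with the neighbours.

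These calls of neighbours rest on few arrays. Leaving out Scr replicate 9 ended all 5 calls of shZeb1_D against Scr (adjusted p of 0.0685 to 0.208). Leaving out Scr replicate 7 (0.0763 to 0.125), Scr replicate 8 (0.0567 to 0.071) or shZeb1_D replicate 15 (0.113 to 0.165) ended each but that of Crot. Without shZeb1_C replicate 10 the calls of Rundc3b and Sri were lost (0.0533 and 0.0819), without replicate 11 those of Dmtf1 and Sri (0.0591 each), and without shZeb1_D replicate 13 (0.0754) or 14 (0.0699) that of Sri. Between the hairpins at least 1 of the 3 calls was lost in each of the 9 fits that left out an array. All 3 were lost without Scr replicate 9 (0.0535 to 0.0779), shZeb1_C replicate 10 (0.108 to 0.164) or shZeb1_D replicate 15 (0.0977 to 0.148). That of Tmem243 was lost without Scr replicate 7 (0.0521) or 8 (0.0528), and those of Dbf4 and Dmtf1 without shZeb1_C replicate 11 (0.0906 to 0.15). Those of Dbf4 and Tmem243 were lost without shZeb1_C replicate 12 (0.0548 to 0.0802), shZeb1_D replicate 13 (0.0538 to 0.0664) or shZeb1_D replicate 14 (0.0755 to 0.122). A fit of only the groups compared ended 4 of 5 calls against Scr (0.0642 to 0.0777) and 2 of 3 between the hairpins (0.0906 to 0.097). An intensity trend ended 2 of 5 (0.0528 to 0.0696) and 2 of 3 (0.0586 to 0.0974). Subtracting array medians ended 1 in each (0.0607 and 0.0505). Array weights, the residual component as covariate, renewed quantile normalization and both other choices of probe sets kept all.

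**Figure D5:**
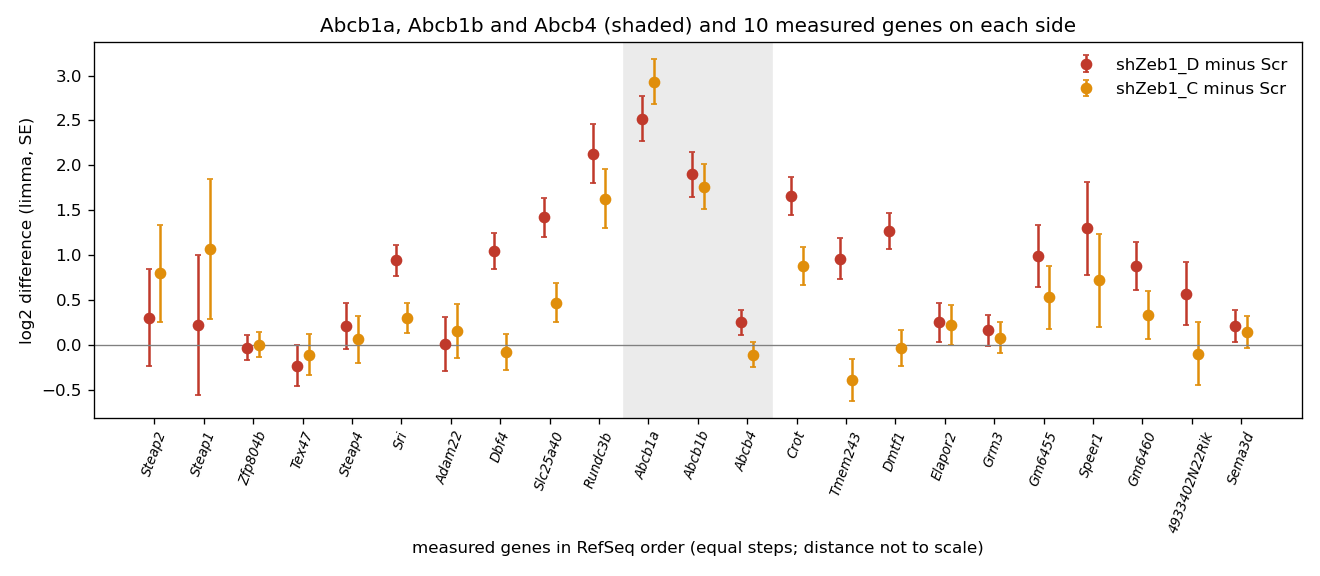
Log2 difference from Scr (y axis, limma with SE) of Abcb1a, Abcb1b and Abcb4 (shaded) and of 10 measured genes on each side in RefSeq order, for shZeb1_D and shZeb1_C. Both hairpins are highest at Abcb1a (2.52 and 2.93). Among the neighbours shZeb1_D is above 0.9 at Sri, Dbf4, Slc25a40, Rundc3b, Crot, Tmem243, Dmtf1, Gm6455 and Speer1. At these genes shZeb1_C lies between -0.39 (Tmem243) and 1.63 (Rundc3b).

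Around the other pumps the window was narrower, with 5 measured genes on each side. Of 10 neighbours each of Abcc1, Abcc2, Abcc4, Abcc5 and Abcg2, limma called 0 in any of the 3 comparisons. Their median differences from Scr lay between -0.08 and 0.14 in shZeb1_D and between -0.14 and 0.05 in shZeb1_C. Many of these neighbours were dim. Of 10 each, 5, 6, 5, 8 and 3 in the same order were brighter than the median probe set. Over these brighter genes the medians ran from -0.37 (Abcc1) to 0.62 (Abcg2) in shZeb1_D. In shZeb1_C they ran from -0.25 to 0.04. Around the Abcb1 run 9 of 20 were brighter, with medians of 1.05 in shZeb1_D and 0.30 in shZeb1_C.

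The genes whose pattern over the 9 arrays was most like that of Abcb1a were sought among 9319 others brighter than the median level. The 5 with the highest Pearson's r were Abtb2 (0.977), Abcb1b (0.974), Gbp7 (0.968), Pqlc3 (0.962) and Gbp3 (0.962). For Abcb1b they were Tspan14 (0.975), Abcb1a (0.974), Rundc3b (0.972), Abtb2 (0.961) and Tmem171 (0.948). The 9 points share groups and the residual component described above, and these values carry no p. Gbp7 and Gbp3 encode guanylate-binding proteins. Gbp7 had a log2 signal of 9.64, 9.29 and 9.89 in shZeb1_D, 10.01, 9.68 and 9.93 in shZeb1_C, and 7.81, 7.90 and 7.90 in Scr, and the hairpins overlapped. Gbp3 stood at 7.93, 7.46 and 7.13 in shZeb1_D, 8.14, 7.99 and 8.16 in shZeb1_C, and 6.19, 6.03 and 6.24 in Scr, and here the hairpins did not overlap. Both were picked for their likeness to Abcb1a, so their distance from Scr follows from that choice.

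Lists of genes that act with the pumps held few calls, which does not show that their genes stayed level. The median size of the log2 difference in shZeb1_C against Scr was 0.23 for the transcription factors, 0.29 for the glutathione genes, 0.23 for the anchoring genes and 0.18 for the drug genes listed below, beside 0.15 for all probe sets. In shZeb1_D against Scr these medians were 0.22, 0.20, 0.38 and 0.20, beside 0.21. The lists were brighter than the array as a whole. In the same order, 19 of 29, 19 of 29, 11 of 14 and 19 of 21 measured genes exceeded the median probe set. The medians were not matched for brightness, so no shift of a list is read from them. Of 29 measured transcription factors and cofactors known to act on efflux pump genes (33 listed), 0 rose and 1 fell in shZeb1_D, and limma called 0 in shZeb1_C and 0 between the hairpins, where 3 had an unadjusted p under 0.05 in each. The 1 was Keap1, the adaptor that marks the stress factor Nrf2 for degradation. Its log2 signal was 11.82, 12.21 and 12.00 in shZeb1_D, 12.25, 12.45 and 12.30 in shZeb1_C, and 12.88, 12.79 and 12.90 in Scr. It fell by 0.85 on the log2 scale in shZeb1_D (SE 0.15; limma adjusted p = 0.0393) and differed by -0.52 ± 0.15 in shZeb1_C (limma adjusted p = 0.203). The call was lost whichever array was left out except shZeb1_C replicate 12, with adjusted p up to 0.198.

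Of 29 measured genes of glutathione synthesis and conjugation (31 listed), which supply substrates to Abcc1 and its relatives, limma called 0 in any comparison, and 6 in shZeb1_D, 4 in shZeb1_C and 4 between the hairpins had an unadjusted p under 0.05. Of 14 genes of membrane anchoring and trafficking of pumps it also called 0, with 3, 2 and 3 at an unadjusted p under 0.05. Of 21 measured drug uptake and drug target genes (22 listed), 0 rose and 1 fell in shZeb1_C, and limma called 0 in shZeb1_D and 0 between the hairpins, with 6 and 3 at an unadjusted p under 0.05. The call was Tubb3, a beta-tubulin known in human tumours for taxane resistance, which stood at 7.72, 7.07 and 7.44 in shZeb1_D, 7.58, 7.39 and 6.96 in shZeb1_C, and 8.35, 9.30 and 8.86 in Scr. It fell by 1.53 on the log2 scale in shZeb1_C (SE 0.28; limma adjusted p = 0.0433) and differed by -1.43 ± 0.28 in shZeb1_D (limma adjusted p = 0.06). The call was lost whichever array was left out except Scr replicate 7 and shZeb1_D replicate 13, with adjusted p up to 0.175. For the lists too, genes at an unadjusted p under 0.05 were not set beside the share of all probe sets. No excess is read from those counts.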

How the data were processed

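RNA of 9 samples of GFP-positive C1498 cells was hybridised to 1-colour arrays. Signals were made with RMA, and the Transcriptome Analysis Console was used, per the submitters' processing notes, which give no versions. The values the authors deposited are linear RMA signals whose decimal point is missing. Each of the 199854 values was returned to log2 by choosing the decimal place that makes log2 a multiple of 0.01, within 1e-06 steps, and 1 place met this for every value. Background correction and quantile normalization in RMA compress changes of dim probe sets.

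Of 22206 probe sets, 19572 had 1 gene symbol and were tested with limma 3.58.1 (R 4.3.3): group means over all 9 arrays, eBayes, and p-values adjusted by Benjamini-Hochberg over the 19572 per comparison. Calls were made where the adjusted p was below 0.05. The members and lists were chosen with earlier results of these data known. From each list called genes could be named, and neighbours and like genes were taken by fixed counts. On simulated data for shZeb1_D against Scr over 19572 probe sets, 83.3% of changes of 2 and 39.7% of changes of 1 (log2) were recovered. The simulated noise was independent between genes and lacked the shared residual component of these arrays. The rates may therefore differ for the real data. Other settings covered normalization, dim or unnamed probe sets, variance prior, array weights, arrays in the fit, the threshold, a residual component and leaving out each array.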

Additional observations from a re-analysis of the deposited data

Results flagged for a closer look

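Among neighbours of the Abcb1 run the hairpins differed by the direct limma test in 3 genes, each higher on all 3 shZeb1_D arrays than on any shZeb1_C array. The log2 difference, shZeb1_D minus shZeb1_C, was 1.13 for Dbf4, 1.36 for Tmem243 and 1.30 for Dmtf1. Abcb1a and Abcb1b, which lie among them, differed by -0.41 and 0.14 and were not called. Whether the pair differs from these neighbours was not tested. Groups of 3 arrays are too small for the search for single outlying arrays.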

How the results depend on the processing

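No paired analysis was run, because the labels do not tell whether samples of different groups were handled together. A repeat with a lower-ranked probe set was not run, as each pump had 1 probe set. Over 18 other settings the difference of Abcb1a from Scr ran from 2.30 to 2.71 in shZeb1_D and from 2.71 to 3.07 in shZeb1_C, and that of Abcb1b from 1.66 to 2.17 in shZeb1_D and from 1.55 to 1.88 in shZeb1_C. The pair was chosen on these differences, so the ranges describe the processing and are no support for them. The count of called pumps was 1 in place of 2 in shZeb1_D when the fit held only the arrays of the groups compared, and 1 to 2 in either comparison when an array was left out. Abcg2 was below Scr in all 18 settings with each hairpin and called in 0. Between the hairpins 0 pumps were called in any setting, adjusted p under 0.1 included. Without the 4 arrays set apart by the residual component, a setting chosen after seeing the data, Abcc4 moved to 0.29 between the hairpins, Abcb1a to -0.08 and Abcb1b to 0.56. In shZeb1_D against Scr, Abcc4 moved to 0.30, Abcc1 to -0.03 and Abcc5 to -0.17. The number of probe sets called was 165 in shZeb1_D against Scr (14 to 213 with an array left out, 68 to 1813 in other settings), 185 in shZeb1_C against Scr (43 to 214 and 125 to 900) and 166 between the hairpins (49 to 162 and 81 to 1377). The highest counts came with the residual component as a covariate, and the cause was not tested. The dim signals of Abcb4 and Abcc2 limit what can be said of them.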
